A study of Homo sapiens with 24 samples.

Results

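The genes described here are inducible early genes of 4 kinds: EGR1, NR4A1, NR4A2, NR4A3, IER2, IER5 and VGF. They were chosen by name from a list of 10 genes (EGR1 to EGR3, NR4A1 to NR4A3, IER2, IER3, IER5 and VGF) proposed with earlier results of these data known, and a gene was kept when the count table held a row for its Ensembl identifier. This left 7 of the 10 genes, among 14585 genes in the table. EGR2, EGR3 and IER3 were not analysed here. The table was limited by its authors to genes with a mean above 5 counts, so presence in it used the measured counts: NR4A3, the least abundant of the 7, had a mean of 44.4 counts over the libraries, IER2 the highest with 986, and the gene with the lowest mean 5.04.

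RNA was sequenced from 2 established human cell lines treated with extracts of 3 plants and fungi used in Traditional Chinese Medicine. A549 is a lung carcinoma line and Huh7 a hepatocellular carcinoma line, both labelled wild type in genotype. The paper describes A549 as wild type for p53 and Huh7 as carrying a mutation of it. In each line, 3 libraries were labelled control, 3 Pulsatilla chinensis extracts, 3 Bupleurum chinense extracts and 3 Polyporus umbellatus extracts, which gave 24 libraries in 8 groups. The dose and time of the sequenced treatments and any solvent in the control are not given in the sources used here. Each group is 1 line in culture, and nothing states that the 3 libraries of a group came from separate cultures, so p-values measure the spread between these libraries.

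Immediate early genes are switched on within minutes of a growth or stress signal, before new protein is made. Kinase cascades act on factors that already sit on their promoters, such as serum response factor with its ternary complex partners on CArG boxes, and CREB on cyclic AMP response elements (CREs). EGR1 is a zinc finger transcription factor, the NR4A proteins are orphan nuclear receptors that bind DNA without a known hormone, IER2 and IER5 are nuclear proteins of the immediate early response family, and VGF is a neurosecretory peptide precursor that responds to nerve growth factor and CREB.

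The genes lie on 7 different chromosomes of GRCh38: EGR1 at chr5:138465479-138469303, NR4A1 at chr12:52022832-52059507, NR4A2 at chr2:156324437-156342348, NR4A3 at chr9:99821855-99866891, IER2 at chr19:13150411-13154911, IER5 at chr1:181088700-181092900 and VGF at chr7:101162509-101165569. NR4A2 and VGF are on the minus strand and the other genes on the plus strand. NR4A1 shares 754 exonic bases with the antisense lncRNA NR4A1AS, and IER2 shares 662 and 946 exonic bases with a pair of antisense lncRNAs. Use of strand in the counting is not stated, so reads of these pairs may not be separated. The VGF transcript has a GC content of 70.5%, higher than 99.7% of the genes in the table.

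Promoters of 3 genes are shown because these genes had the largest increases against control, EGR1 in A549 cells and VGF and NR4A3 in Huh7 cells. Each is the RefSeq window of 300 bases on GRCh38.p14, from 250 bases before the annotated start to 50 bases after it, written 5′ to 3′ on the strand of the gene. EGR1 is at chr5:138465229-138465528 on the plus strand, NR4A3 at chr9:99821635-99821934 on the plus strand and VGF at chr7:101165520-101165819 on the minus strand. Capitals mark the CArG boxes and the CRE letters TGACG, read on either strand.
EGR1: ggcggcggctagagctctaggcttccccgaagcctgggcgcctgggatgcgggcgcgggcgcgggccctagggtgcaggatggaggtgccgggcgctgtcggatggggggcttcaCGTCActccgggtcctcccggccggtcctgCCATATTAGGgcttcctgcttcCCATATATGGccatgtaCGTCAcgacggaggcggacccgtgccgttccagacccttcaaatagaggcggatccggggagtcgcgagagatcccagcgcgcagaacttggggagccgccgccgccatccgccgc
NR4A3: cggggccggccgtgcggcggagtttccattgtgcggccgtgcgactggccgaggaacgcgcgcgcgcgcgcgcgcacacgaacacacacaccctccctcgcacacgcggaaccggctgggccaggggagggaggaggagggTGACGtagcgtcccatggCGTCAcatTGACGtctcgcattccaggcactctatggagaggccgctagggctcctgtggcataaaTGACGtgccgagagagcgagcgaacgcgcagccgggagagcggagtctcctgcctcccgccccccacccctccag
VGF: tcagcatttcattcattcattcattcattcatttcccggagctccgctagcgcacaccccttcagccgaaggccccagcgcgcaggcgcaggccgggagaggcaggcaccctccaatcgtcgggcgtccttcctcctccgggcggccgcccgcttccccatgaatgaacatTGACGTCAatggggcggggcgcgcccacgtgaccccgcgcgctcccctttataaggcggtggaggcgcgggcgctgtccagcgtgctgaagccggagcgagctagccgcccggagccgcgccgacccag

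The EGR1 window held 2 CArG boxes, 105 and 83 bases before the start, and 2 TGACG sites, 135 and 66 bases before it. The NR4A3 window held 4 TGACG sites, the nearest 25 bases before the start. VGF carried the full palindrome TGACGTCA 79 bases before its start, and this element contains 2 overlapping TGACG sites. Of 35116 RefSeq promoter windows of this length, 1.29% held a CArG box, 24.6% a TGACG site and 1.85% the full TGACGTCA. The IER2 window held 1 TGACG site, 140 bases before the start, and the IER5 window held none of the letters searched. The NR4A response element AAAGGTCA (1.22% of windows) and the EGR1 site GCGTGGGCG (0.795%) were in none of the windows of these 5 genes. The RefSeq window of NR4A1 nearest to the canonical transcript start had its annotated start 13727 bases away and is not shown. NR4A2 had no window among those searched. These matches are letters in a window, and binding was not measured.

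Library totals ranged from 6803704 to 24345541 counts (median 10515192). Within Huh7, control and P. chinensis libraries were the deepest, at 13259204 to 24345541 counts, against 7182444 to 11546100 for B. chinense and P. umbellatus. The lines carried their own markers: KRT7 was at 1553 to 1773 CPM (counts scaled by library size with TMM factors) in A549 and at most 0.123 in Huh7, and AFP was at 1821 to 2651 CPM in Huh7 and at most 0.294 in A549. Of the other 9 line markers, AKR1C1 was shared (253 to 475 CPM in Huh7) and HNF4A was present in A549 at 44.8 to 123 CPM. PTPRC and COL1A1 were at most 7.75 CPM in every library, and PECAM1 was at 31.8 to 55.9 CPM in Huh7. One library stood apart. Each pair of replicates was compared gene by gene with a chi-square statistic, which squares the deviations. For Huh7 P. umbellatus replicate 2 against its group, the median statistic was 13.3 and 17.6 times that of sampling noise alone. All other pairs of replicates were at 2.74 to 5.36 times. Huh7 P. umbellatus replicate 2 held the lowest value of its group for each of the 7 genes. Results in Huh7 are therefore given with and without it where the call differed.

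Against control, P. chinensis up-regulated 3 of the 7 genes in A549 cells (EGR1, IER5 and VGF) and down-regulated NR4A1, with 15.8% of all genes tested up-regulated and 17.1% down-regulated at an adjusted p below 0.05. B. chinense up-regulated the same 3 and down-regulated NR4A1 and NR4A3 in A549, beside 13.1% and 15% of all genes. With P. umbellatus, IER5 and VGF rose and all 3 NR4A genes fell in A549, beside 13.4% and 14.8%. In Huh7 cells P. chinensis up-regulated 6 of 7 genes, all but NR4A1, and down-regulated 0, where 10.5% of all genes rose and 10.5% fell. B. chinense raised only VGF in Huh7 (0.519% of all genes rose and 0.757% fell), and 4 of the 7 genes (VGF, EGR1, NR4A3 and IER2) passed without Huh7 P. umbellatus replicate 2, where 2.6% of all genes rose and 3.94% fell. P. umbellatus raised EGR1, NR4A3 and VGF and lowered NR4A1 and IER5 in Huh7 (19.3% and 17.8%), and only VGF passed when the 6 libraries compared were fitted alone (3.93% and 5.24% of all genes). Comparisons within a line share the same 3 control libraries. The genes were named with earlier results known, so these counts are a description. In cultures sequenced in bulk, fewer responding cells and less RNA per cell cannot be told apart.

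**Figure D1:**
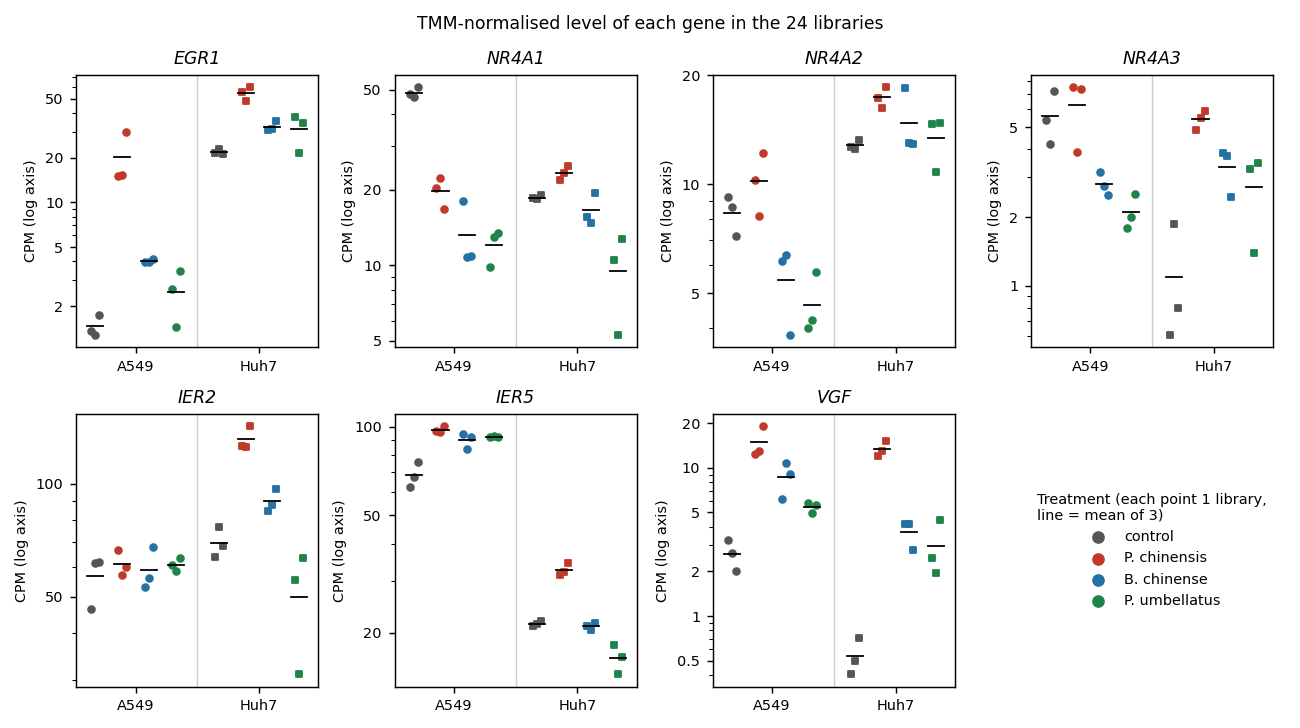
TMM-normalised CPM (log axis) of each gene, with 1 point per library (circles for A549, squares for Huh7) and a line at the mean of 3. EGR1 and VGF lay above control in every P. chinensis library of both lines, while NR4A1 lay below control in every treated A549 library.

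Of the 7 genes, EGR1 had the largest fold change in A549 cells. The A549 control libraries were at 1.37, 1.28 and 1.73 CPM, and the P. chinensis libraries at 15.1, 15.3 and 30.0 CPM. B. chinense libraries were at 3.97, 3.97 and 4.13 CPM, and P. umbellatus libraries at 2.59, 1.44 and 3.43 CPM. Only the P. umbellatus group overlapped control. The increase with P. chinensis was 12.03-fold (log2 fold change 3.59 ± 0.34 SE, edgeR adjusted p = 1.37e-06), the 4th highest of 13633 genes. With B. chinense it was 2.47-fold (1.31 ± 0.35, edgeR adjusted p = 0.0116), and voom with sample weights gave an adjusted p of 0.0886. With P. umbellatus the log2 fold change was 0.62 ± 0.35 and did not pass (edgeR adjusted p = 0.219). The control counts behind these values were 11, 13 and 18, which limits the precision of the fold. EGR1 was proposed with earlier results of these data known, so its rank is a description.

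In Huh7 cells EGR1 started from a higher level. The control libraries were at 21.5, 23.1 and 21.4 CPM, and the P. chinensis libraries at 55.6, 48.5 and 60.2 CPM. B. chinense gave 30.9, 31.4 and 35.4 CPM, and P. umbellatus 37.6, 21.7 and 34.4 CPM, where the value inside the control range came from replicate 2. EGR1 rose 2.58-fold with P. chinensis (log2 fold change 1.37 ± 0.16, edgeR adjusted p = 9.22e-05) and 1.48-fold with P. umbellatus (0.57 ± 0.16, edgeR adjusted p = 0.0188). The P. umbellatus call was lost without any 1 of the control libraries or without P. umbellatus replicate 1 (edgeR adjusted p = 0.0542 to 0.0696). With B. chinense the log2 fold change was 0.58 ± 0.16 (edgeR adjusted p = 0.119), although the 3 libraries did not overlap control, and it passed without Huh7 P. umbellatus replicate 2 (edgeR adjusted p = 0.00374).

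**Figure D2:**
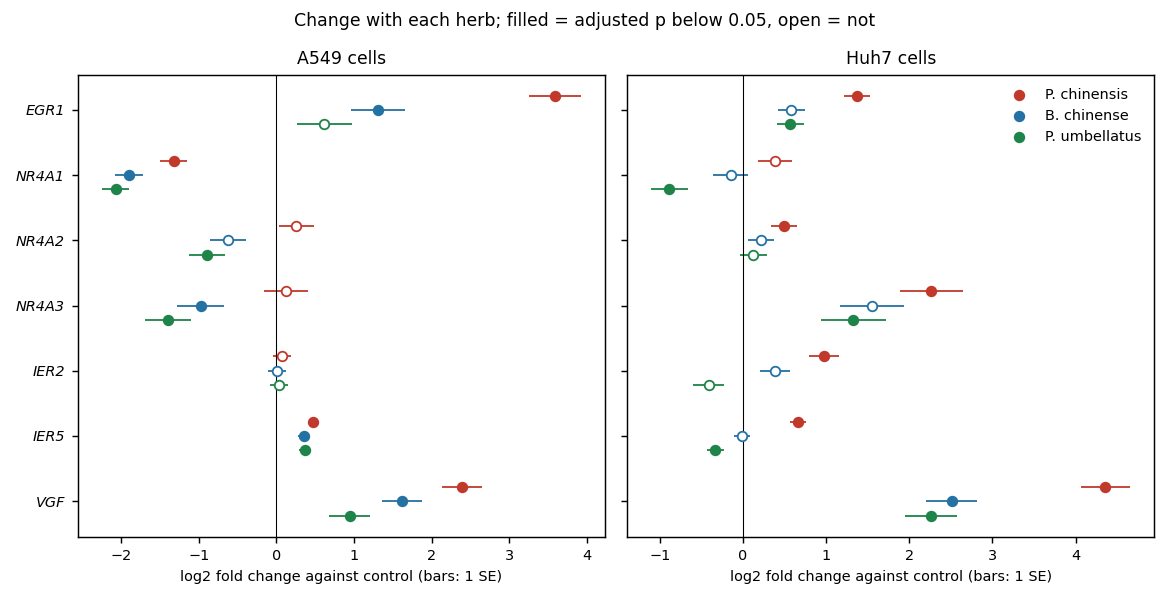
Log2 fold change against control for each gene and herb in A549 (left) and Huh7 (right), with bars of 1 SE. Filled points had an edgeR adjusted p below 0.05. NR4A1 fell with all 3 herbs in A549, and VGF rose with all 3 herbs in both lines.

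NR4A1, the NR4A receptor with the highest level per kilobase in the A549 libraries, fell with every herb in A549 cells. The control libraries were at 48.2, 46.9 and 51.4 CPM. P. chinensis libraries were at 20.4, 22.3 and 16.8 CPM, B. chinense libraries at 18.0, 10.8 and 10.9 CPM and P. umbellatus libraries at 9.82, 13.02 and 13.5 CPM. None of the 9 treated libraries overlapped control. The log2 fold change with P. chinensis was -1.32 ± 0.17 (2.50-fold lower, edgeR adjusted p = 3.66e-05). B. chinense gave -1.90 ± 0.18 (3.73-fold lower, edgeR adjusted p = 2.82e-06), and P. umbellatus gave -2.07 ± 0.18 (4.21-fold lower, edgeR adjusted p = 1.04e-06).

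In Huh7 cells NR4A1 had control values of 18.5, 18.3 and 19.0 CPM. P. umbellatus libraries were lower, at 10.6, 5.28 and 12.7 CPM, with a log2 fold change of -0.88 ± 0.22 (edgeR adjusted p = 0.00981). Without replicate 2 the change was -0.62 (edgeR adjusted p = 0.00486), and with a correction for GC content and length it was -0.35 (adjusted p = 0.0798). The P. chinensis libraries lay above control, at 21.97, 23.3 and 24.9 CPM, with a log2 fold change of 0.38 ± 0.21 that did not pass (edgeR adjusted p = 0.223). It passed without Huh7 P. umbellatus replicate 2 (edgeR adjusted p = 0.0177). B. chinense libraries were at 15.6, 14.7 and 19.4 CPM and overlapped control.

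NR4A3 moved in opposite directions in the lines with P. umbellatus, up in Huh7 and down in A549. In Huh7 the control libraries were at 0.606, 1.86 and 0.797 CPM, from 12, 30 and 19 counts. P. chinensis libraries were at 4.85, 5.50 and 5.88 CPM, B. chinense libraries at 3.84, 3.72 and 2.46 CPM and P. umbellatus libraries at 3.28, 1.39 and 3.47 CPM. Only P. umbellatus replicate 2 lay within the control range. The increase with P. chinensis was 4.81-fold (log2 fold change 2.27 ± 0.37, edgeR adjusted p = 0.00111). P. umbellatus gave 1.33 ± 0.39 (edgeR adjusted p = 0.0214), a call lost when control replicate 1 or 3 or P. umbellatus replicate 1 or 3 was left out (edgeR adjusted p = 0.0576 to 0.0778). B. chinense gave 1.55 ± 0.38 (edgeR adjusted p = 0.0767), and 1.56 with an edgeR adjusted p of 0.0165 without Huh7 P. umbellatus replicate 2. It also passed without control replicate 2 (edgeR adjusted p = 0.0343).

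In A549 cells NR4A3 was at 5.35, 4.22 and 7.22 CPM in control. It was lower with P. umbellatus, at 1.79, 2.01 and 2.54 CPM (log2 fold change -1.40 ± 0.30, edgeR adjusted p = 0.00268), and with B. chinense, at 3.18, 2.75 and 2.51 CPM (-0.98 ± 0.30, edgeR adjusted p = 0.0249). The B. chinense call was lost without control replicate 3 or B. chinense replicate 2 or 3 (edgeR adjusted p = 0.0691 to 0.110), and voom with sample weights gave an adjusted p of 0.0586. P. chinensis libraries, at 7.51, 3.87 and 7.34 CPM, overlapped control, and the log2 fold change was 0.12 ± 0.28.

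NR4A2, the NR4A receptor best known from dopamine neurons, fell in 1 A549 comparison and rose in 1 Huh7 comparison. In A549 control it was at 9.21, 8.64 and 7.22 CPM, and it fell with P. umbellatus to 4.01, 4.21 and 5.72 CPM (log2 fold change -0.89 ± 0.23, edgeR adjusted p = 0.0103). B. chinense libraries, at 6.13, 6.39 and 3.83 CPM, also lay below control, with a change of -0.62 ± 0.24 that did not pass (edgeR adjusted p = 0.0638). P. chinensis libraries were at 8.16 to 12.2 CPM and overlapped control. In Huh7 the control libraries were at 12.5 to 13.3 CPM and the P. chinensis libraries at 16.3 to 18.6 CPM, a log2 fold change of 0.49 ± 0.15 (edgeR adjusted p = 0.0399). This call was lost when any 1 of those 6 libraries was left out (edgeR adjusted p = 0.0824 to 0.132). B. chinense (12.9 to 18.5 CPM) and P. umbellatus (10.8 to 14.8 CPM) overlapped control in Huh7.

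Dividing CPM by transcript length allowed the NR4A genes to be compared with each other. In A549 control libraries NR4A1 made up 84.3% to 86.0% of the family's CPM per kilobase, and the family summed to 22.1 to 24.05. The sum was 11.6 to 12.5 in the P. chinensis libraries, 5.94 to 9.59 in those of B. chinense and 5.43 to 7.53 in those of P. umbellatus. NR4A1's share was 58.4% to 74.7% with P. chinensis. In Huh7 control its share was 65.2% to 66.4% with a sum of 11.2 to 11.6, and with P. chinensis the sum was 14.7 to 16.4. With P. umbellatus in Huh7 the share was 38.7% to 51.3%, and NR4A2 held 42.5% to 56.8%. The values 38.7% and 56.8% were those of replicate 2, the library that stood apart. The ratio of EGR1 to NR4A1, both per kilobase, was 0.0215 to 0.0267 in A549 control and 0.543 to 1.41 with P. chinensis. It was 0.174 to 0.2997 with B. chinense and 0.0874 to 0.209 with P. umbellatus in that line. In Huh7 the ratio was 0.890 to 0.996 in control, 1.65 to 2.01 with P. chinensis, 1.44 to 1.69 with B. chinense and 2.14 to 3.25 with P. umbellatus. The control libraries of each line lay below all treated libraries. The ratio of 3.25 was that of Huh7 P. umbellatus replicate 2. Shares and ratios were not corrected for GC content, which was 60.7% for NR4A1, 55.3% for EGR1 and 47.9% for NR4A2. With a correction for GC content and length, NR4A1 with P. umbellatus in Huh7 changed by -0.35 (edgeR adjusted p = 0.0798). Without it the log2 fold change was -0.88.

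**Figure D3:**
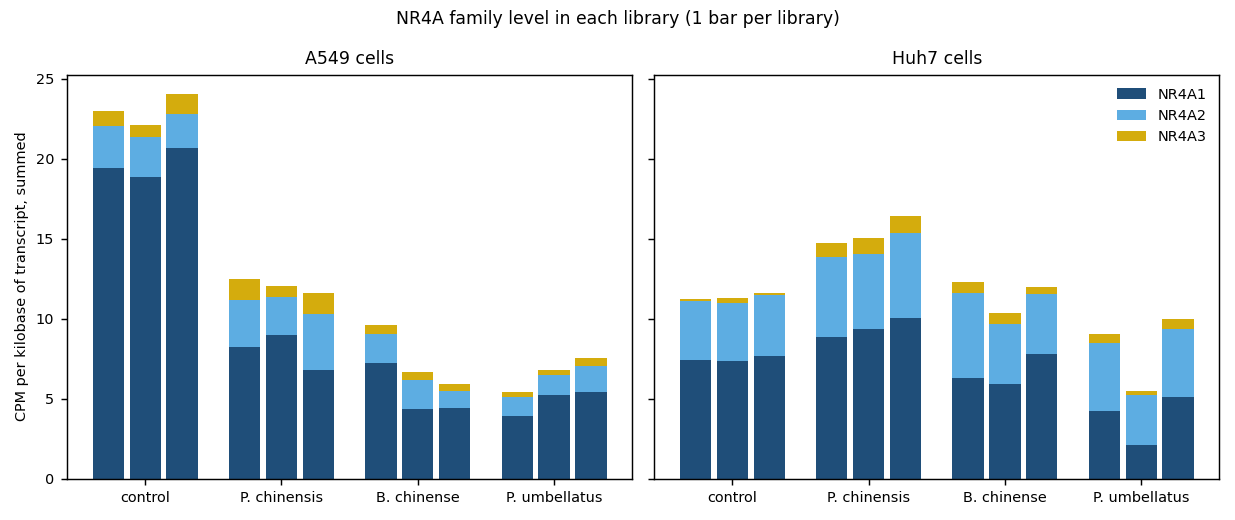
CPM per kilobase of transcript of NR4A1, NR4A2 and NR4A3, stacked, with 1 bar per library. The A549 control libraries reached 22.1 to 24.05, above all treated A549 libraries, and the Huh7 P. chinensis libraries were the tallest of their line.

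IER2, a growth factor inducible nuclear protein, did not pass in any A549 comparison with control. Its A549 levels were 46.3 to 61.9 CPM in control and 52.9 to 67.7 CPM in the treated libraries, and the log2 fold changes were 0.08 ± 0.11, 0.01 ± 0.12 and 0.04 ± 0.11. In Huh7 the control libraries were at 63.6, 76.6 and 68.3 CPM and the P. chinensis libraries at 126, 126 and 143 CPM. This was a 1.97-fold increase (log2 fold change 0.98 ± 0.18, edgeR adjusted p = 0.00213). B. chinense libraries (84.8 to 97.0 CPM) lay above control with a change of 0.39 ± 0.18 (edgeR adjusted p = 0.408), which passed without Huh7 P. umbellatus replicate 2 (edgeR adjusted p = 0.0139). P. umbellatus libraries, at 55.5, 31.0 and 63.5 CPM, lay below control, with -0.41 ± 0.18 (edgeR adjusted p = 0.0969). This decrease passed without replicate 3 of that group (edgeR adjusted p = 0.0189), a fit that kept replicate 2, the library that stood apart. It did not pass without replicate 2. The direction of the P. umbellatus change turned with a correction for GC content and length, to 0.31 (adjusted p = 0.0124).

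IER5, a regulator of the heat shock response, rose with all 3 herbs in A549 by a small and even amount. Its control libraries were at 62.6, 67.7 and 75.8 CPM, and all 9 treated libraries lay above them, at 83.9 to 100 CPM. P. chinensis gave a log2 fold change of 0.47 ± 0.07 (edgeR adjusted p = 0.000105). B. chinense gave 0.35 ± 0.07 (edgeR adjusted p = 0.00174), and P. umbellatus 0.36 ± 0.07 (edgeR adjusted p = 0.00119). In Huh7 the control libraries were at 21.1, 21.5 and 21.9 CPM. P. chinensis libraries were at 31.3, 32.2 and 34.5 CPM (0.66 ± 0.10, edgeR adjusted p = 0.000538), B. chinense libraries at 20.5 to 21.6 CPM (-0.01 ± 0.10), and P. umbellatus libraries at 18.2, 14.5 and 16.5 CPM (-0.33 ± 0.10, edgeR adjusted p = 0.0256). The decrease did not pass without replicate 2 of that group (-0.26, edgeR adjusted p = 0.0534) or without any 1 of the control libraries (edgeR adjusted p = 0.0518 to 0.0762).

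VGF rose with each herb in each line. Huh7 control libraries held it at 0.404, 0.497 and 0.713 CPM, from 8, 8 and 17 counts. P. chinensis libraries were at 11.9, 12.97 and 15.1 CPM, B. chinense libraries at 4.16, 4.16 and 2.80 CPM and P. umbellatus libraries at 2.46, 1.95 and 4.44 CPM. No treated library overlapped control. With P. chinensis the increase was 20.5-fold (log2 fold change 4.36 ± 0.30, edgeR adjusted p = 1.81e-06), ranked 1 of 13875 genes. B. chinense gave 5.70-fold (2.51 ± 0.30, edgeR adjusted p = 0.00196, ranked 5) and P. umbellatus 4.78-fold (2.26 ± 0.31, edgeR adjusted p = 0.000749, ranked 12). With a correction for GC content and length the P. umbellatus value was 3.35 (adjusted p = 7.58e-06). VGF was proposed with earlier results of these data known, so its ranks are a description.

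In A549 cells VGF was at 3.24, 2.65 and 2.02 CPM in control. P. chinensis libraries were at 12.4, 13.1 and 19.1 CPM, B. chinense libraries at 6.13, 10.7 and 9.14 CPM and P. umbellatus libraries at 5.74, 4.98 and 5.596 CPM, all above control. P. chinensis raised it 5.25-fold (log2 fold change 2.39 ± 0.26, edgeR adjusted p = 6.22e-06). B. chinense raised it 3.07-fold (1.62 ± 0.26, edgeR adjusted p = 0.000348), and P. umbellatus 1.93-fold (0.94 ± 0.26, edgeR adjusted p = 0.0145). The last call was lost without control replicate 3 (0.79, edgeR adjusted p = 0.0663).

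Comparing the herbs directly, P. chinensis exceeded the others for several genes. The extracts' doses are not given in the sources used here, so the pairs may differ in dose as well as in herb. In A549, EGR1 was 4.87-fold higher with P. chinensis than with B. chinense (log2 difference 2.28 ± 0.31, edgeR adjusted p = 0.00396), and it was the 1 gene of the 7 called, where 0.447% of all genes were higher and 1% lower. NR4A1 passed there without B. chinense replicate 1, and NR4A3 without P. chinensis replicate 2 (edgeR adjusted p = 0.0358 and 0.0367). Against P. umbellatus, 5 of 7 were higher with P. chinensis, where 0.814% of all genes were higher and 2.19% lower: EGR1 (2.97 ± 0.31, edgeR adjusted p = 0.000758), NR4A3 (1.52 ± 0.30, 0.0147), VGF (1.45 ± 0.24, 0.0062), NR4A2 (1.15 ± 0.23, 0.0176) and NR4A1 (0.75 ± 0.18, 0.042). The NR4A1 call was lost without any 1 of the 6 libraries (edgeR adjusted p = 0.0672 to 0.144), and NR4A2 and NR4A3 were lost without P. umbellatus replicate 1 or 2 or P. chinensis replicate 3 (edgeR adjusted p = 0.0564 to 0.1). NR4A3 was also lost without P. chinensis replicate 1 (edgeR adjusted p = 0.0515). DESeq2 called 2 of the 7 genes in this comparison and gave no adjusted p for some of the genes that edgeR called. B. chinense and P. umbellatus differed in 0 of the 7 genes in A549 by edgeR, beside 0.0513% of all genes. VGF alone had an unadjusted p below 0.05 (0.67 ± 0.24, edgeR adjusted p = 0.518), and DESeq2 and voom also called 0.

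In Huh7, P. chinensis exceeded B. chinense for 3 of 7 genes, where 3.89% of all genes were higher and 3.91% lower: VGF (1.85 ± 0.27, edgeR adjusted p = 0.00129), EGR1 (0.79 ± 0.16, 0.0107) and IER5 (0.67 ± 0.10, 0.00172). EGR1 did not pass without P. chinensis replicate 1 or 3 or B. chinense replicate 1 or 2 (edgeR adjusted p = 0.0503 to 0.062). Without Huh7 P. umbellatus replicate 2, NR4A1 and IER2 passed as well (edgeR adjusted p = 0.00655 and 0.000353), where 9.13% of all genes were higher and 11.3% lower. Against P. umbellatus 5 of 7 were higher, where 16.5% of all genes were higher and 18.8% lower, with VGF at 2.10 ± 0.28, IER2 at 1.39 ± 0.19, NR4A1 at 1.27 ± 0.22, IER5 at 0.99 ± 0.10 and EGR1 at 0.80 ± 0.16. B. chinense exceeded P. umbellatus for IER2 (0.80 ± 0.19), NR4A1 (0.74 ± 0.23) and IER5 (0.32 ± 0.10), where 12.6% of all genes were higher and 14.6% lower. None of these 3 passed when only the 6 libraries were compared (edgeR adjusted p = 0.128 to 0.195), where 0.0149% of all genes were higher and 0% lower. NR4A1 and IER5 were also lost without any 1 of the B. chinense libraries, and IER5 without P. umbellatus replicate 2 or 3 (edgeR adjusted p = 0.0503 to 0.108).

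The control libraries of the lines differed in 6 of the 7 genes, beside 68.7% of all genes tested. EGR1 was 13.4-fold lower in A549 than in Huh7 (log2 difference -3.75 ± 0.29, edgeR adjusted p = 1.58e-10) and NR4A2 was lower by a log2 difference of -0.59 ± 0.19, a call lost without A549 control replicate 3 (edgeR adjusted p = 0.0532). NR4A3 (2.26 ± 0.35), VGF (1.99 ± 0.31), IER5 (1.69 ± 0.08) and NR4A1 (1.41 ± 0.20) were higher in A549. IER2 differed by -0.27 ± 0.16 (edgeR adjusted p = 0.141), and by -0.27 with an edgeR adjusted p of 0.0248 without Huh7 P. umbellatus replicate 2.

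The difference in response between the lines was tested in a model of all 24 libraries. For P. chinensis it passed for 5 of 7 genes, beside 19.6% of all genes, with a higher log2 fold change in A549 for EGR1 (2.31 ± 0.37) and a lower one for NR4A3 (-2.07 ± 0.47), VGF (-1.84 ± 0.37), NR4A1 (-1.65 ± 0.29) and IER2 (-0.85 ± 0.23). B. chinense differed for 3 of 7 genes, beside 11.6%: NR4A3 (-2.48 ± 0.50), NR4A1 (-1.72 ± 0.30) and IER5 (0.40 ± 0.11). P. umbellatus differed for 5 of 7 genes, beside 34.4%, with NR4A3 at -2.65 ± 0.50, VGF at -1.18 ± 0.38, NR4A1 at -1.11 ± 0.30, NR4A2 at -0.95 ± 0.28 and IER5 at 0.78 ± 0.11. NR4A1 and NR4A3 had a lower log2 fold change in A549 than in Huh7 for all 3 herbs. Some calls rested on single libraries. IER5 with B. chinense did not pass without A549 control replicate 1, A549 B. chinense replicate 1, Huh7 control replicate 3 or Huh7 B. chinense replicate 2 (edgeR adjusted p = 0.0515 to 0.0625). NR4A2 with P. umbellatus did not pass without A549 P. umbellatus replicate 1 (edgeR adjusted p = 0.0509), nor VGF without A549 control replicate 1 or Huh7 P. umbellatus replicate 3 (edgeR adjusted p = 0.0572 and 0.0697). Without Huh7 P. umbellatus replicate 2 NR4A2 passed with B. chinense (edgeR adjusted p = 0.0397), and without replicate 3 of that group IER2 passed with P. umbellatus (edgeR adjusted p = 0.0188). The 3 tests share the control libraries of both lines.

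**Figure D4:**
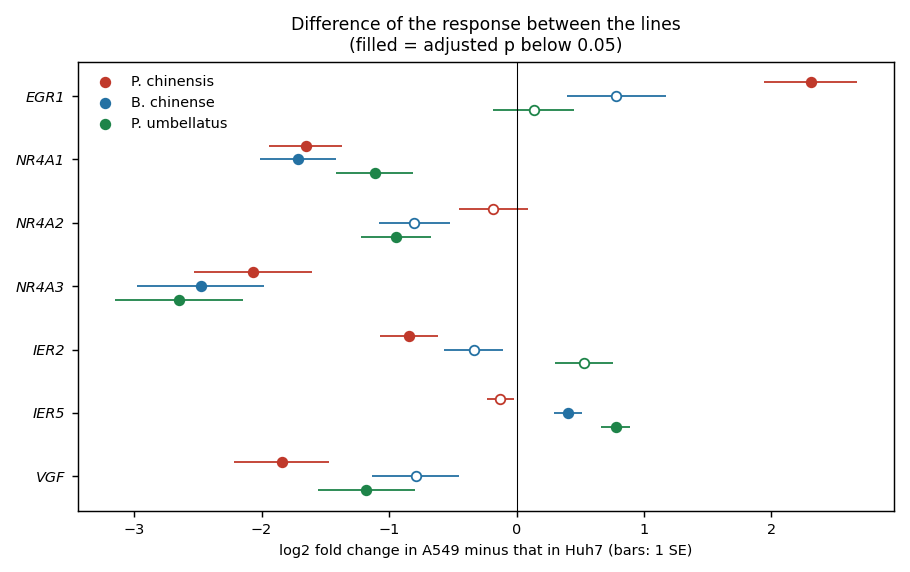
Log2 fold change in A549 minus that in Huh7 for each gene and herb, with bars of 1 SE, from the model of all 24 libraries. NR4A1 and NR4A3 lay below 0 for all 3 herbs, and EGR1 with P. chinensis was the highest at 2.31.

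Other immediate early genes were counted in a list of 40 genes from general knowledge, of which 38 were tested in each line. The list was written with earlier results of these data known, so its counts are a description. With P. chinensis in Huh7, 25 rose and 1 fell, where 10.5% of all genes rose and 10.5% fell (median log2 fold change 0.77, against 0.01 for all genes). In A549 with P. chinensis 22 rose and 5 fell, beside 15.8% and 17.1% of all genes (median 0.33, all genes 0.01). B. chinense raised 17 and lowered 8 in A549, beside 13.1% and 15% (median 0.22), and raised 7 and lowered 0 in Huh7, beside 0.519% and 0.757% (median 0.30). P. umbellatus raised 16 and lowered 8 in A549, beside 13.4% and 14.8% (median 0.20), and raised 15 and lowered 7 in Huh7, beside 19.3% and 17.8% (median 0.24). By lowest adjusted p with P. chinensis, the examples in A549 were BTG2, an antiproliferative gene and p53 target (2.37 ± 0.08, edgeR adjusted p = 9.57e-11), PLK2, a stress kinase (1.03 ± 0.07), and IER5L, a relative of IER5 that fell (-0.92 ± 0.07). In Huh7 they were FOSB, a subunit of AP-1 (3.27 ± 0.14, edgeR adjusted p = 6.99e-08), GADD45B, a stress and NF-kB responsive gene (2.64 ± 0.13), and KLF10, a zinc finger factor (1.43 ± 0.08). FOSB also rose with P. chinensis in A549 (4.86 ± 0.41, edgeR adjusted p = 5.26e-07), whereas GADD45B and KLF10 were not called there.

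**Figure D5:**
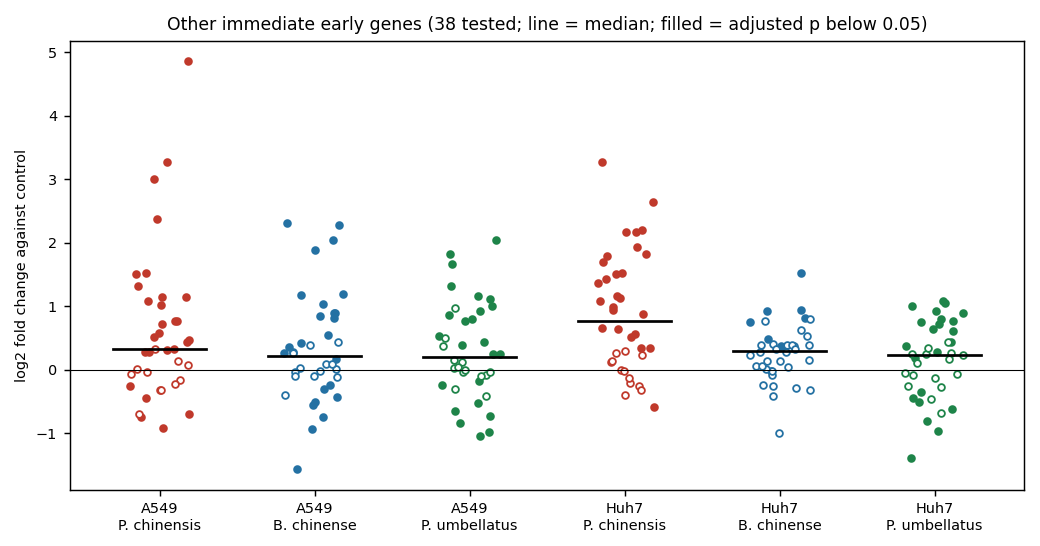
Log2 fold change against control of the 38 tested genes of the immediate early list that are not described above, with 1 point per gene, a line at the median and filled points for an edgeR adjusted p below 0.05. The median was highest with P. chinensis in Huh7, at 0.77.

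Genes that report ERK signalling were counted in each line. Their list was written from general knowledge with earlier results of these data known. Of 13 tested in A549, 6 rose and 1 fell for P. chinensis (15.8% of all genes rose and 17.1% fell), 4 rose and 2 fell for B. chinense (13.1% and 15%) and 7 rose and 0 fell for P. umbellatus (13.4% and 14.8%). Of 12 tested in Huh7, 2 rose and 6 fell with P. chinensis (10.5% and 10.5% of all genes), and 1 rose and 4 fell with P. umbellatus (19.3% and 17.8%). With B. chinense 0 changed in Huh7 by edgeR (0.519% and 0.757% of all genes), 4 had an unadjusted p below 0.05, and DESeq2 called 2 and voom 3. DUSP6, the ERK phosphatase, rose with P. chinensis in A549 (1.46 ± 0.15, edgeR adjusted p = 3.49e-06) and fell in Huh7 (-0.48 ± 0.06, edgeR adjusted p = 0.000169). EPHA2, a receptor kinase (0.62 ± 0.05), and CCND1, cyclin D1 (0.36 ± 0.04), rose in A549, while ETV5, an ETS factor, fell in Huh7 (-0.47 ± 0.06) and PHLDA1 rose (0.38 ± 0.06).

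Factors that act on early gene promoters, or that bind EGR and NR4A proteins, were called in both directions. With P. chinensis the shares called were near those of all genes, so the genes named are examples only. Of 15 tested, 3 rose and 2 fell with P. chinensis in A549 (15.8% of all genes rose and 17.1% fell) and 1 rose and 2 fell in Huh7 (10.5% and 10.5%). CREB1, which binds CREs, fell in A549 (-0.44 ± 0.07, edgeR adjusted p = 0.000261), and ELK3, a partner of serum response factor, rose (0.45 ± 0.06). CRTC2, a CREB coactivator, rose as well (0.37 ± 0.11). In Huh7, NAB1, a corepressor of EGR1 (-0.42 ± 0.09), and RXRA, a partner of NR4A1 and NR4A2 (-0.37 ± 0.10), fell, and MRTFA, a coactivator of serum response factor, rose (0.64 ± 0.17). B. chinense raised 2 and lowered 3 in A549 (13.1% and 15% of all genes) and changed 0 in Huh7 by edgeR (0.519% and 0.757%), also 0 by unadjusted p, DESeq2 and voom. P. umbellatus raised 1 and lowered 1 in A549 (13.4% and 14.8%) and raised 3 and lowered 5 in Huh7 (19.3% and 17.8%).

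Secretory granule genes, whose products travel with VGF in neuroendocrine cells, were counted as neighbours of VGF in function. Of 6 tested in A549, 2 rose for P. chinensis (15.8% of all genes rose), 3 for B. chinense (13.1%) and 2 for P. umbellatus (13.4%), and 0 fell. Of 5 tested in Huh7, 2 rose with P. chinensis (10.5% of all genes), 1 with P. umbellatus (19.3%) and 0 with B. chinense by edgeR (0.519%), where 1 had an unadjusted p below 0.05, DESeq2 called 0 and voom 1. None fell in Huh7 by edgeR. PCSK1N, a prohormone convertase inhibitor, rose with P. chinensis in A549 (0.65 ± 0.21, edgeR adjusted p = 0.0248), as did CPE, carboxypeptidase E (0.97 ± 0.32). PAM, the amidating enzyme, had 0.21 ± 0.12 in A549 and did not pass there (edgeR adjusted p = 0.2). In Huh7, PAM (0.38 ± 0.11) and SCG3 (0.86 ± 0.27) rose, and PCSK1N had 1.20 ± 0.43 without passing (edgeR adjusted p = 0.0714).

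The genes whose log2 CPM followed each of the 7 most closely over the 12 libraries of a line were found among genes that averaged 50 counts or more there. These correlations describe 12 libraries that share 4 groups and carry no test. Those in Huh7 include P. umbellatus replicate 2, the library that stood apart, and were not computed without it. In A549, EGR1 was most like B3GNT5 (Pearson r = 0.94), PPP1R15A (0.93) and ALG2 (0.93), and NR4A1 most like NEDD9, CCDC80 and MYOCD (0.98 each). IER5 followed RELB (0.98), CD70 (0.96) and NFKB2 (0.96), and VGF followed BTBD10 (0.97), ZNF79 (0.96) and RESF1 (0.95). NR4A2 was nearest to INSIG1 (0.90), FCF1 (0.89) and ZNF551 (0.88), and IER2 to POM121 (0.91), REV3L (0.86) and DTNBP1 (0.86). In Huh7, VGF was most like TUBA1A (0.98), FOSB (0.98) and HMOX1 (0.97), and EGR1 most like TUBB3 (0.97), FOSL2 (0.97) and POLR3D (0.97). IER2 followed CAVIN1 (0.99), RHOB (0.98) and ARHGEF18 (0.98), NR4A1 followed PLEC (0.99), CCDC9 (0.98) and CREB3L3 (0.98), IER5 followed DAPK3, KRT19 and CLDN6 (0.96 each), and NR4A2 followed UBE2Q1 (0.94), HSPA2 (0.90) and ILK (0.89). NR4A3 was below the minimum in both lines.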

How the data were processed

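RNA was measured by ribosomal RNA depleted, stranded total RNA sequencing in 24 libraries (2 cell lines, 4 treatments, 3 libraries each). The authors checked reads with FastQC and made the deposited table of estimated counts with kallisto against Ensembl cDNA (GRCh38.p13), and kept protein-coding genes whose mean exceeded 5 counts. The deposited values are whole numbers and were used as they are. The version of kallisto and the way transcripts were summed to genes are not given in the sources used here. Gene coordinates, GC content and lengths came from GENCODE on GRCh38 and promoters from RefSeq.

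Counts were tested with edgeR 4.0.16 (R 4.3.3): quasi-likelihood test, two-sided, TMM normalization, prior count 2, genes with a mean above 5 counts in a line, Benjamini-Hochberg adjustment over all genes tested and a threshold of 0.05. The 12 libraries of a line entered each fit, and all 24 entered the comparisons between lines, without a replicate block. Each SE was derived from the quasi-likelihood F statistic, as the absolute log2 fold change divided by the square root of F. Printed CPM used TMM factors of all 24 libraries and differed from those scaled within a line by at most 0.06 (log2). The scripts were tested on simulated data. Alternatives were DESeq2 1.42.0, RLE factors, no filter, a replicate block, limma 3.58.1 voom with sample weights, a correction for GC content and length, the 6 libraries compared and each library left out. Depth was 6803704 to 24345541 counts, and with 3 libraries a group small changes may be missed. Named genes were all 7, the 3 genes most correlated with each (mean of at least 50 counts, log2 of CPM plus 0.5), and 3 examples a list by lowest adjusted p with P. chinensis. The members and lists were chosen with earlier results of these data known.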

Additional observations from a re-analysis of the deposited data

Results flagged for a closer look

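The responses below differed between A549 and Huh7 by a test of the difference itself, in the model of all 24 libraries. Values are the log2 fold change in A549 minus that in Huh7, with edgeR adjusted p-values. For EGR1 with P. chinensis it was 2.31 (9.07e-05), the largest positive difference among these genes. NR4A1 had differences of -1.65 (0.000224) for P. chinensis, -1.72 (0.000416) for B. chinense and -1.11 (0.00748) for P. umbellatus. NR4A3 had -2.07 (0.00279), -2.48 (0.00178) and -2.65 (0.000471) in the same order. VGF had -1.84 (0.0011) with P. chinensis and -1.18 (0.0202) with P. umbellatus. IER2 had -0.85 (0.0101) with P. chinensis, and NR4A2 -0.95 (0.0121) with P. umbellatus. IER5 had 0.40 (0.0202) with B. chinense and 0.78 (3.56e-05) with P. umbellatus. Control levels also differed between the lines for all of these genes except IER2 (edgeR adjusted p = 0.141), and the part of that difference in the fold changes was not tested. Outlying single values were not tested here, since each group held 3 libraries.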

How the results depend on the processing

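Limits. Each group had 3 libraries, and control counts of EGR1 in A549 and of VGF and NR4A3 in Huh7 were 8 to 30, so the folds of these genes are imprecise. The spread in Huh7 depended on P. umbellatus replicate 2. RLE factors and the absence of a count filter changed no call or direction of a single gene (0 of 112 results each). DESeq2 added 6 calls and lost 0 of 103 results, and 9 others had no adjusted p. Among 840 results with a library left out, 55 lost their call, 13 gained one and 23 changed direction. The causes were not tested.

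DESeq2 called 3 of 7 genes for B. chinense in Huh7 (main value 1), counting genes with an adjusted p. In A549 it called 2 of 6 for P. chinensis against B. chinense (main 1) and 2 of 4 for P. chinensis against P. umbellatus (main 5). Voom called 3 for B. chinense in A549 (all genes 3842, main 3832), and in Huh7 4 for B. chinense and 5 for P. chinensis against B. chinense. GC and length correction gave 4 and 5 for the latter comparisons in Huh7, 1 for B. chinense against P. umbellatus in Huh7 and 6 for the line difference with B. chinense. Fits of the 6 libraries gave 4 for B. chinense, 1 for P. umbellatus, 6 for P. chinensis against B. chinense and 0 for B. chinense against P. umbellatus, all in Huh7; at 0, edgeR called 2 of all genes in that fit.

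With 1 library left out, counts ranged from 1 to 2 for P. chinensis against B. chinense and 2 to 4 for P. chinensis against P. umbellatus in A549. In Huh7 they ranged from 1 to 4 for B. chinense, 2 to 5 for P. umbellatus, 2 to 5 for P. chinensis against B. chinense and 1 to 3 for B. chinense against P. umbellatus.

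Directions turned as follows. With voom, IER2 with B. chinense in A549 was -0.05, and for B. chinense against P. umbellatus in Huh7 EGR1 was -0.17, NR4A2 -0.024 and NR4A3 -0.011. The EGR1 line difference with P. umbellatus was -0.057. With GC and length correction, IER2 was -0.047 with B. chinense and -0.00091 with P. umbellatus in A549 and 0.31 with P. umbellatus in Huh7. EGR1 was -0.21 and VGF -0.75 for B. chinense against P. umbellatus in Huh7. The line differences with P. umbellatus were -0.14 for EGR1 and -0.23 for IER2.

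With a library left out, IER2 in A549 ranged from -0.039 to 0.14 with P. chinensis, from -0.10 to 0.088 with B. chinense and from -0.078 to 0.10 with P. umbellatus. Between herbs in A549, IER2 ranged from -0.012 to 0.18 (P. chinensis against B. chinense), -0.020 to 0.075 (P. chinensis against P. umbellatus) and -0.14 to 0.052 (B. chinense against P. umbellatus). In the last comparison NR4A1 ranged from -0.11 to 0.31 and IER5 from -0.040 to 0.040. NR4A3 with P. chinensis in A549 ranged from -0.041 to 0.36, and IER5 with B. chinense in Huh7 from -0.028 to 0.0059. For B. chinense against P. umbellatus in Huh7, EGR1 ranged from -0.18 to 0.17, NR4A2 from -0.060 to 0.21 and NR4A3 from -0.052 to 0.43. The EGR1 line difference with P. umbellatus ranged from -0.062 to 0.38. None of these values was called in the main analysis.

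Counts over all genes also moved by more than 1.5 times. P. chinensis in Huh7 gave 2901 genes, against 6325 by voom, 4465 with GC and length correction and 5892 with 6 libraries. B. chinense in Huh7 gave 177, against 519 by DESeq2, 1229 by voom, 840 with the correction, 1117 with 6 libraries and 116 with the replicate block. P. umbellatus in Huh7 gave 5138, against 2690 with the correction and 1259 with 6 libraries. In A549, P. chinensis against B. chinense gave 198 (458 by DESeq2, 33 with 6 libraries, 122 with the block), P. chinensis against P. umbellatus 410 (650, 229 and 258) and B. chinense against P. umbellatus 7 (73 by DESeq2, 12 with the correction). In Huh7, P. chinensis against B. chinense gave 1083 (1755 by DESeq2, 3344 by voom, 2382 with the correction, 3204 with 6 libraries), P. chinensis against P. umbellatus 4907 (2061 with 6 libraries) and B. chinense against P. umbellatus 3781 (933 with the correction, 2 with 6 libraries). Line differences gave 2529 for P. chinensis (4017 by voom) and 1499 for B. chinense (2483 by voom, 2306 with the correction). With 1 library left out, all-gene counts ran in Huh7 from 1840 to 4843 for P. chinensis, 51 to 909 for B. chinense, 3250 to 6362 for P. umbellatus, 450 to 2833 for P. chinensis against B. chinense and 1435 to 5692 for B. chinense against P. umbellatus. In A549 they ran from 38 to 197 for P. chinensis against B. chinense, 122 to 337 for P. chinensis against P. umbellatus and 4 to 8 for B. chinense against P. umbellatus, and for the line difference with B. chinense from 1128 to 2398. The counts 4843, 909, 2833 and 2398 were without Huh7 P. umbellatus replicate 2, and 6362 and 5692 without replicate 3 of that group.

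Replicate numbers are shared by the groups, but same-numbered libraries did not deviate together (correlations -0.061 to 0.066 over 36 pairs, 0 above 0.1), so the numbers were not taken to pair libraries. With the replicate block the counts against control were 4, 5 and 5 in A549 and 6, 1 and 5 in Huh7, for P. chinensis, B. chinense and P. umbellatus, equal to those without it. The block moved the adjusted p of NR4A1 for P. chinensis against P. umbellatus in A549 to 0.0793, of IER5 for B. chinense against P. umbellatus in Huh7 to 0.0549 and of IER2 between control lines to 0.0396 (-0.49).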
